A study of Mus musculus with 8 samples.

Results

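The 35 cell cycle and proliferation genes described here were taken by symbol from a mouse liver table of 22183 genes, and all 35 were found. They fall into 12 genes of G1 control, 10 of DNA synthesis (S) and 13 of G2 and mitosis (G2/M). The tested livers came from mice of genotype Stat3flox/flox;Alb-Cre (knockout, 4 libraries), and the livers they were set against came from Stat3flox/flox mice (control, 4 libraries). Both genotypes carried 2 floxed copies of Stat3, and both were gavaged daily for 2 weeks with 20% alcohol at a dose of 15 µL for each g of mouse, so every comparison below is one of genotype under alcohol. Stat3 is a transcription factor downstream of interleukin-6 family cytokines. Alb-Cre expresses Cre recombinase from the albumin promoter, which is active in hepatocytes, so Stat3 transcripts of the other cells of whole liver are expected to remain. Age and sex are not in the labels, and the labels number the samples without saying that each is a separate animal. Reads of Y-linked genes were present in some libraries of each group and absent from others, so neither group came from a single animal. The p-values below cover the spread of these libraries, which may be in part technical.

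A cell that divides passes G1, when D-type cyclins with Cdk4 or Cdk6 and E-type cyclins with Cdk2 inactivate the retinoblastoma proteins and release E2F factors. E2F factors then switch on the genes of replication, and the forkhead factor Foxm1 with B-Myb switches on the mitotic genes, ahead of Cdk1 and B-type cyclins driving mitosis. Most hepatocytes of adult liver are quiescent and polyploid, and immune and other non-parenchymal cells also divide there, so transcripts of this pathway in whole liver come from a mixture of cells.

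Each library held 15998391 to 19474696 counts, and levels are given as CPM (counts per 1000000 of the scaled library). Stat3 itself stood at 27.3, 25.1, 29.7 and 28.4 CPM in knockouts 1 to 4, against 75.1, 72.9, 46.8 and 72.1 CPM in controls 1 to 4, and it fell (log2 fold change −1.27, adjusted p = 0.0469, edgeR quasi-likelihood test), with adjusted p of 0.0564 to 0.227 when control 1, 2 or 4 or knockout 2, 3 or 4 was left out. All 6 hepatocyte markers had counts in every library, and albumin took 7.46 to 13.8% of counts in knockout and 8.53 to 27.3% in control, the highest share being that of control 2. Reads of Y-linked genes were present in 3 knockout libraries (2, 3 and 4) and 2 control libraries (3 and 4). Over all 11692 genes tested, 4 were lower and 0 higher at adjusted p under 0.05, which is 0.0342% of genes, against 4 lower and 1 higher with DESeq2's size factors and 7 lower and 4 higher with upper-quartile scaling. The number called moved more in other settings, with 0 in limma-voom, 278 in DESeq2 and 324 without control 3.

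Transcripts of G2/M genes were low in all libraries and had a lower mean in knockout for 13 of 13 genes, against 8 of 12 G1 genes and 6 of 10 S genes. Genes of a list were read in the same libraries and may vary together, so these counts are a description. None of the 35 genes passed the threshold over all genes: 27 had enough counts to be tested, and 0 of them were called by edgeR's quasi-likelihood test, with 5 at an unadjusted p under 0.05 (Cdk1, Mki67, Ccna2, Mcm6 and Ccne2, all lower in knockout), 1 called by DESeq2 (Cdk1) and 0 by limma-voom. That 5 of 27 is 18.5%, against 14% of all genes tested (8.47% lower and 5.55% higher). By phase the 5 were 3 of 6 G2/M, 1 of 10 S and 1 of 11 G1 genes tested. For 4 of the 5 the controls alone reached the count filter of 4 libraries and the knockouts alone did not. Cdk1, Mki67 and Ccna2 had 3 knockouts over it and Ccne2 had 1. The filter counted libraries of both groups together, so it could favour a lower level in knockout most for Ccne2, and the count is a description. Top2a went the other way, with 4 knockouts and 3 controls over the filter. Summed over all members, the G2/M genes held 6.18, 6.35, 4.99 and 8.33 CPM in knockouts 1 to 4 and 23.8, 17.9, 6.32 and 13.2 CPM in controls 1 to 4. Control 3 therefore lay within the range of the knockouts, and the other 3 controls lay above it. The summed G2/M level averaged 6.46 ± 1.38 CPM in knockout and 15.3 ± 7.38 CPM in control (SD, n = 4 each), a ratio of 0.423. The S genes summed to 73.5 ± 8.91 CPM in knockout and 72.4 ± 3.87 CPM in control, and the G1 genes to 140.0 ± 11.5 CPM in knockout and 135.6 ± 26.4 CPM in control (SD, n = 4 each), ratios of 1.02 and 1.03. These sums describe the lists, and neither they nor the difference between phases was tested. The lists and phases were chosen with earlier results of these data known, so the contrast between phases was not fixed beforehand. A summed level is set mostly by the most abundant members, such as Pcna in S and Cdk4 and Cdkn1a in G1. In G2/M the most abundant in controls were Mki67, Top2a and Cdk1 (means of 3.34, 2.59 and 2.23 CPM), so the ratio of 0.423 does not weigh the 13 genes equally.

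**Figure D1:**
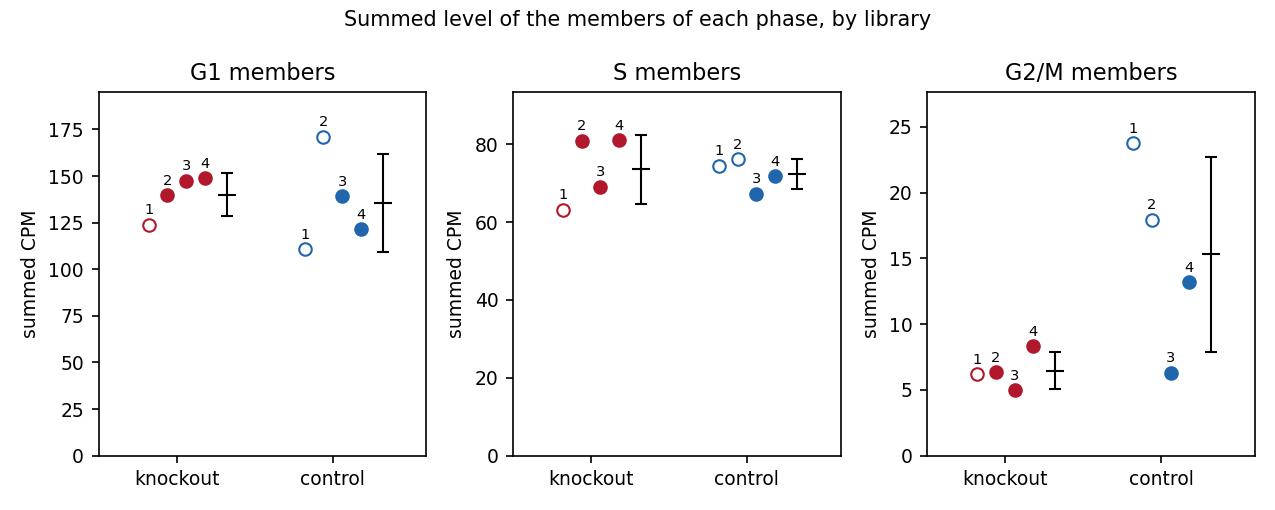
Summed CPM of the 12 G1, 10 S and 13 G2/M genes in each library (numbered points), with the mean and SD of each group as a black bar. Filled points are libraries with Y-linked reads, open points those without. The G2/M sum of the 4 knockouts lay between 4.99 and 8.33 CPM, with control 3 at 6.32 CPM and the other controls at 13.2 to 23.8 CPM, while the G1 and S sums of the groups overlapped.

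The G2/M difference varied with the libraries compared. Leaving out control 3 gave a ratio of 0.353 and leaving out control 1 a ratio of 0.518, the extremes when any 1 library was left out. Among libraries with Y-linked reads the G2/M sum averaged 6.56 CPM in 3 knockouts and 9.75 CPM in 2 controls, a ratio of 0.673. Those controls were control 3, at 6.32 CPM, and control 4, at 13.2 CPM. The split by Y-linked reads therefore cannot be told apart from the low level of control 3. Among those without Y-linked reads it was 6.18 CPM in the single knockout and 20.8 CPM on average in 2 controls, a ratio of 0.297.

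With no filter on low counts, the median log2 fold change over all 13 G2/M genes was −1.14, and 13 of 13 had a fold change below 0, against 51.5% of all genes in that fit. The 13 genes were read in the same libraries and may vary together, so they are not 13 separate observations of a direction. With the filter, the median was −1.21 over the 6 G2/M genes tested, −0.08 over the 10 S genes and −0.03 over the 11 G1 genes tested, against −0.03 over all genes tested. The 6 are not the whole list. Only the controls were at the filter in all 4 libraries for 3 of them (Cdk1, Mki67 and Ccna2), and only the knockouts for Top2a. The median of the 6 is therefore a description and no support for a direction. Values below 0 were found for 6 of 10 S and 7 of 11 G1 genes tested, against 53.2% of all genes. In libraries with Y-linked reads alone, whose controls included control 3, the G2/M median was −0.44 over 7 genes tested, that of S 0.01 and that of G1 0.10.

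**Figure D2:**
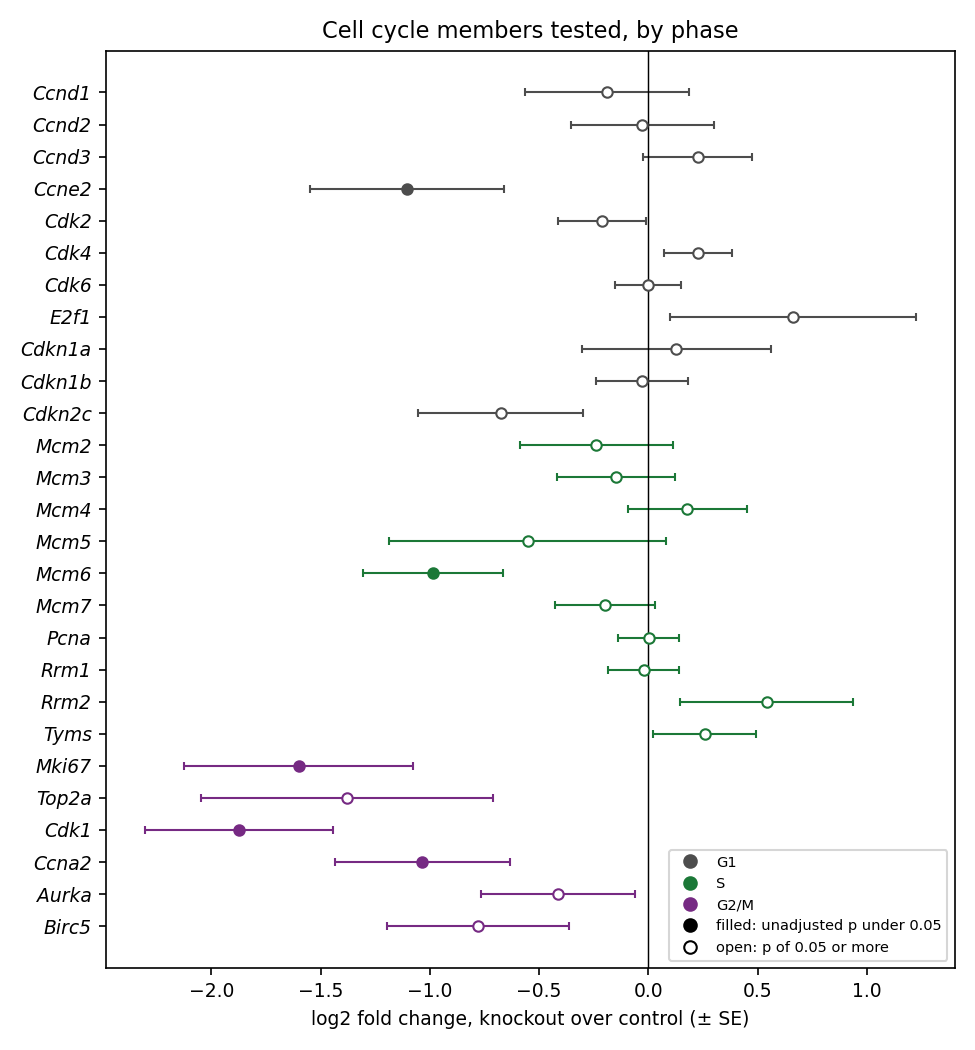
Log2 fold change of knockout over control with its SE for the 27 genes tested, ordered by phase and coloured by it. Filled points had an unadjusted p under 0.05 and none passed the adjusted threshold; the 6 G2/M genes, at the bottom, lie at −0.41 to −1.88, while the G1 and S genes fall on both sides of 0.

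Cdk1, the kinase that with cyclins A and B drives entry into mitosis, had the smallest p of the 35. It was at 0.634, 0.743, 0.301 and 0.729 CPM in knockouts 1 to 4 and at 2.93, 2.91, 1.07 and 1.997 CPM in controls 1 to 4, from 12, 11, 5 and 14 raw counts in knockout and 68, 41, 18 and 40 in control. The groups did not overlap, as for 7.08% of all genes tested (3.86% with the knockouts below), and control 3 was the lowest control. The log2 fold change was −1.88 (SE 0.43, adjusted p = 0.130, edgeR). The adjusted p was 0.0169 without control 3 and 0.00979 in DESeq2, where 2.72% and 2.17% of genes were called, and it stood at up to 0.417 when another library was left out. The gene (ENSMUSG00000019942) lies on GRCm38 chr10:69335146-69352938, minus strand, and overlaps no other annotated gene.

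Mki67, the chromosome surface protein whose product Ki-67 marks cycling cells, was lower in knockout on average. It had 1.48, 0.811, 0.301 and 1.77 CPM in knockouts 1 to 4, against 5.90, 2.91, 1.55 and 2.996 CPM in controls 1 to 4. Knockout 4 lay above control 3, so the groups overlapped, and control 1 was the highest library. The log2 fold change was −1.60 (SE 0.53, adjusted p = 0.247, edgeR). Ccna2, or cyclin A2, which acts with Cdk2 in S phase and with Cdk1 in G2, had 0.528, 0.878, 0.662 and 0.676 CPM in knockouts and 1.51, 2.13, 0.715 and 1.30 CPM in controls. Control 3 was again in the range of the knockouts. Its log2 fold change was −1.03 (SE 0.40, adjusted p = 0.302, edgeR), and its counts were fractional in 6 libraries, for a reason the files do not give; Exosc9 overlaps it on the opposite strand.

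The other tested G2/M genes had an unadjusted p of 0.05 or more. Top2a, the topoisomerase that untangles replicated chromosomes, had 20, 10, 10 and 31 raw counts in knockouts 1 to 4 and 118, 42, 4 and 41 in controls 1 to 4. Control 3 held fewer Top2a reads than any knockout, and the log2 fold change of −1.38 (SE 0.67, adjusted p = 0.379, edgeR) was −0.79 without control 1 and −1.75 without control 3. The survivin gene Birc5, a subunit of the chromosomal passenger complex, had 6, 6, 10 and 12 raw counts in knockouts and 28, 9, 15 and 12 in controls (log2 fold change −0.78, SE 0.42). Aurka, the centrosomal Aurora kinase, differed least of these 3, with 14, 19, 17 and 18 raw counts in knockouts and 25, 26, 16 and 29 in controls (−0.41, SE 0.35).

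The remaining 7 G2/M genes and the G1 gene Ccne1 were under the count filter (0.556 CPM in at least 4 libraries), and their raw counts are given without a test. Foxm1, the transcription factor of the mitotic genes, had 4, 3, 4 and 1 counts in knockouts 1 to 4, against 18, 7, 5 and 13 in controls 1 to 4. Every knockout was below every control, as for 3.86% of genes that passed the filter. The 4 counts of knockouts 1 and 3 lay next to the 5 of control 3. Ccnb1, the main mitotic cyclin B, had 5, 3, 7 and 8 counts in knockouts and 29, 16, 0 and 11 in controls. Its relative Ccnb2 had 0, 10, 4 and 4 counts in knockouts and 18, 6, 1 and 13 in controls. In both cyclins control 3 was the lowest control, with 0 and 1 reads. Cdc20, the activator of the anaphase-promoting complex, had 2, 4, 0 and 7 counts in knockouts and 21, 13, 6 and 2 in controls. The Aurora kinase Aurkb, the catalytic part of the passenger complex, had 1, 0, 4 and 4 counts in knockouts and 21, 12, 0 and 4 in controls. Neither gene separated the groups, since controls 3 and 4 both lay within the range of the knockouts for each of them. Plk1, the Polo kinase of mitotic entry, had 11, 3, 2 and 13 counts in knockouts and 21, 7, 2 and 10 in controls. Bub1, a kinase of the spindle checkpoint, had 4, 0, 4 and 1 counts in knockouts and 13, 3, 1 and 3 in controls. Control 1 held the highest count of each of these 7 genes. A count of 0 allows up to 3 reads, for counting error only.

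**Figure D3:**
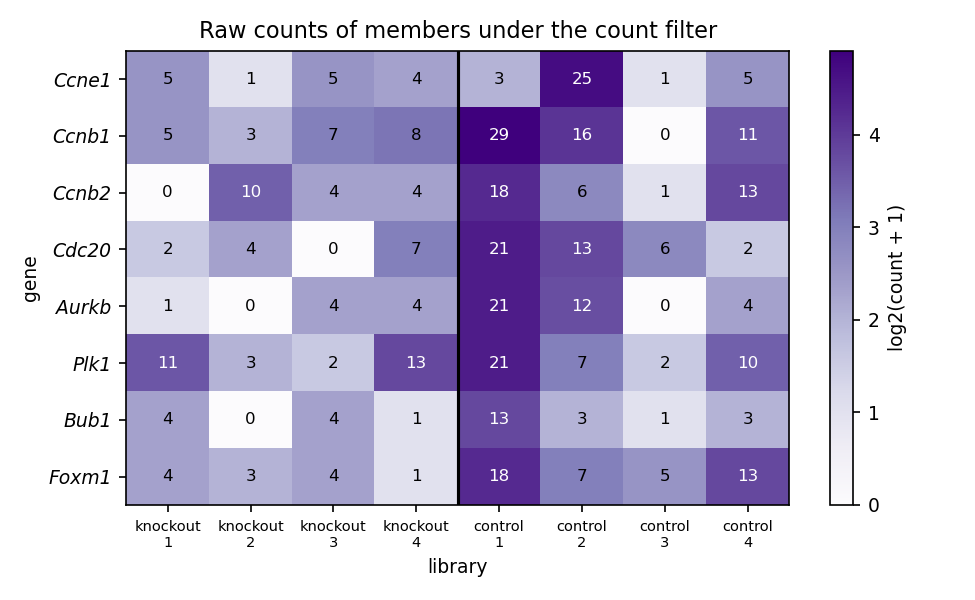
Raw counts of the 8 genes under the count filter in each library (columns, knockouts left of the line and controls right), shaded by log2(count + 1). Control 1 is the darkest column for the 7 G2/M genes, Ccne1 stands out in control 2 with 25 counts, and control 3 is as pale as the knockouts.

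Of the 10 S genes, 6 had a log2 fold change below 0, and Mcm6 alone had an unadjusted p under 0.05. It is a subunit of the MCM helicase that is loaded at replication origins, and it had 2.17, 2.77, 2.35 and 4.27 CPM in knockouts 1 to 4 and 7.62, 6.60, 3.04 and 5.64 CPM in controls 1 to 4. Only control 3 lay within the knockout range, and the log2 fold change was −0.98 (SE 0.32, adjusted p = 0.247, edgeR). Without control 3 it was −1.19 (adjusted p = 0.0457), the other adjusted p with 1 library left out reaching 0.553, and in libraries with Y-linked reads alone it was −0.47. The other 5 subunits of the same hexamer did not share that difference by p. Their log2 fold changes were −0.24 for Mcm2 (SE 0.35), −0.15 for Mcm3 (SE 0.27), 0.18 for Mcm4 (SE 0.27), −0.55 for Mcm5 (SE 0.63) and −0.20 for Mcm7 (SE 0.23), none of which was tested against that of Mcm6. Mcm5 was the least read of them, with 5, 9, 17 and 29 raw counts in knockouts and 42, 28, 4 and 20 in controls, and its fold change in libraries with Y-linked reads alone was 0.74.

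The clamp and the nucleotide enzymes had log2 fold changes of 0 or above, or just below it. Pcna, the sliding clamp of DNA polymerases, averaged 23.7 ± 3.30 CPM in knockout and 23.7 ± 1.33 CPM in control (SD, n = 4 each; log2 fold change 0.00, SE 0.14). Rrm1, the large subunit of ribonucleotide reductase, averaged 9.34 ± 1.02 CPM in knockout and 9.46 ± 1.18 CPM in control. Its partner Rrm2, the small subunit whose level limits the enzyme, varied far more, with 4.75, 15.7, 16.5 and 20.7 CPM in knockouts 1 to 4 and 13.9, 9.01, 5.54 and 10.9 CPM in controls 1 to 4. Knockout 1 was the lowest and the other 3 knockouts were above every control, and the log2 fold change of 0.54 (SE 0.40, adjusted p = 0.557, edgeR) was not past the threshold; it was 0.84 without knockout 1 and 0.31 without knockout 4. Tyms, thymidylate synthase, had 7.92, 8.65, 8.002 and 8.95 CPM in knockouts and 5.55, 6.24, 10.9 and 5.39 CPM in controls (0.26, SE 0.24). Here control 3 was the highest library, and without it the fold change was 0.55 (adjusted p = 0.113).

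The G1 genes held the most abundant members per length together with Pcna. Per kilobase of exon, Pcna averaged 9.89 CPM in knockout and 9.87 CPM in control, Cdk4 9.13 CPM in knockout and 7.79 CPM in control, and Cdkn1a 8.24 CPM in knockout and 7.56 CPM in control. The 13 G2/M genes lay between 0.0289 and 0.525 CPM per kilobase. Among G1 genes, Ccne2 alone had a p under 0.05. This E-type cyclin, a partner of Cdk2 at the entry to S phase, had 0.792, 0.541, 0.421 and 0.208 CPM in knockouts 1 to 4 and 1.08, 1.06, 1.37 and 0.749 CPM in controls 1 to 4. Only knockout 1 reached the lowest control, and control 3 was here the highest. The log2 fold change was −1.11 (SE 0.44, adjusted p = 0.312, edgeR), and it was −1.44 in libraries with Y-linked reads alone. Ccne2 passed the count filter in all 4 controls and 1 knockout, so its being tested rested on the controls, and its counts were fractional in 3 libraries; Ints8 overlaps it on the opposite strand. Its paralog Ccne1 had 5, 1, 5 and 4 raw counts in knockouts and 3, 25, 1 and 5 in controls, with control 2 alone above 5.

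The D-type cyclins and the kinases had log2 fold changes between −0.21 and 0.23. Ccnd1, cyclin D1, which links growth signals to the cycle, had 22.2, 11.0, 14.3 and 13.7 CPM in knockouts 1 to 4 and 23.0, 26.2, 6.32 and 14.3 CPM in controls 1 to 4. The 3 libraries without Y-linked reads were the 3 highest, whatever their genotype. The log2 fold change of Ccnd1 was −0.19 (SE 0.38), and it was 0.16 with Y-linked reads as a covariate and −0.46 without control 3. Ccnd2 averaged 4.18 ± 1.53 CPM in knockout and 4.26 ± 1.42 CPM in control, and Ccnd3 24.6 ± 6.20 CPM in knockout and 21.0 ± 5.74 CPM in control (SD, n = 4 each). Of the kinases, Cdk4 had a log2 fold change of 0.23 (SE 0.16), Cdk6 of 0.00 (SE 0.15) and Cdk2 of −0.21 (SE 0.20). None of these 6 genes had an unadjusted p under 0.05.

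E2f1, an activator of replication genes, and the inhibitors of the cyclin-dependent kinases completed G1. E2f1 had 7, 22, 38 and 33 raw counts in knockouts 1 to 4 and 28, 11, 5 and 27 in controls 1 to 4 (log2 fold change 0.66, SE 0.56, adjusted p = 0.616, edgeR). As for Rrm2, knockout 1 and control 3 were the 2 lowest libraries. Cdkn1a, or p21, the inhibitor induced by p53, had 10.04, 36.9, 32.5 and 37.6 CPM in knockouts and 15.2, 48.1, 26.9 and 17.3 CPM in controls. Knockout 1 was the lowest and control 2 the highest library, and the log2 fold change of 0.13 (SE 0.43) was 0.57 without control 2. It was 0.85 without controls 2 and 3 together, 0.69 in libraries with Y-linked reads alone and −0.04 with Y-linked reads as a covariate. Cdkn1b, or p27, the inhibitor typical of quiescent cells, averaged 14.3 ± 3.26 CPM in knockout and 14.6 ± 3.31 CPM in control. Cdkn2c, or p18, an inhibitor of Cdk4 and Cdk6, had 6.71, 1.76, 3.49 and 2.24 CPM in knockouts and 4.05, 6.45, 6.43 and 5.94 CPM in controls. Knockout 1 was above all 4 controls and the other 3 knockouts below them. The log2 fold change of −0.68 (SE 0.38, adjusted p = 0.444, edgeR) was −1.19 without knockout 1 (adjusted p = 0.111) and −1.31 in libraries with Y-linked reads alone.

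**Figure D4:**
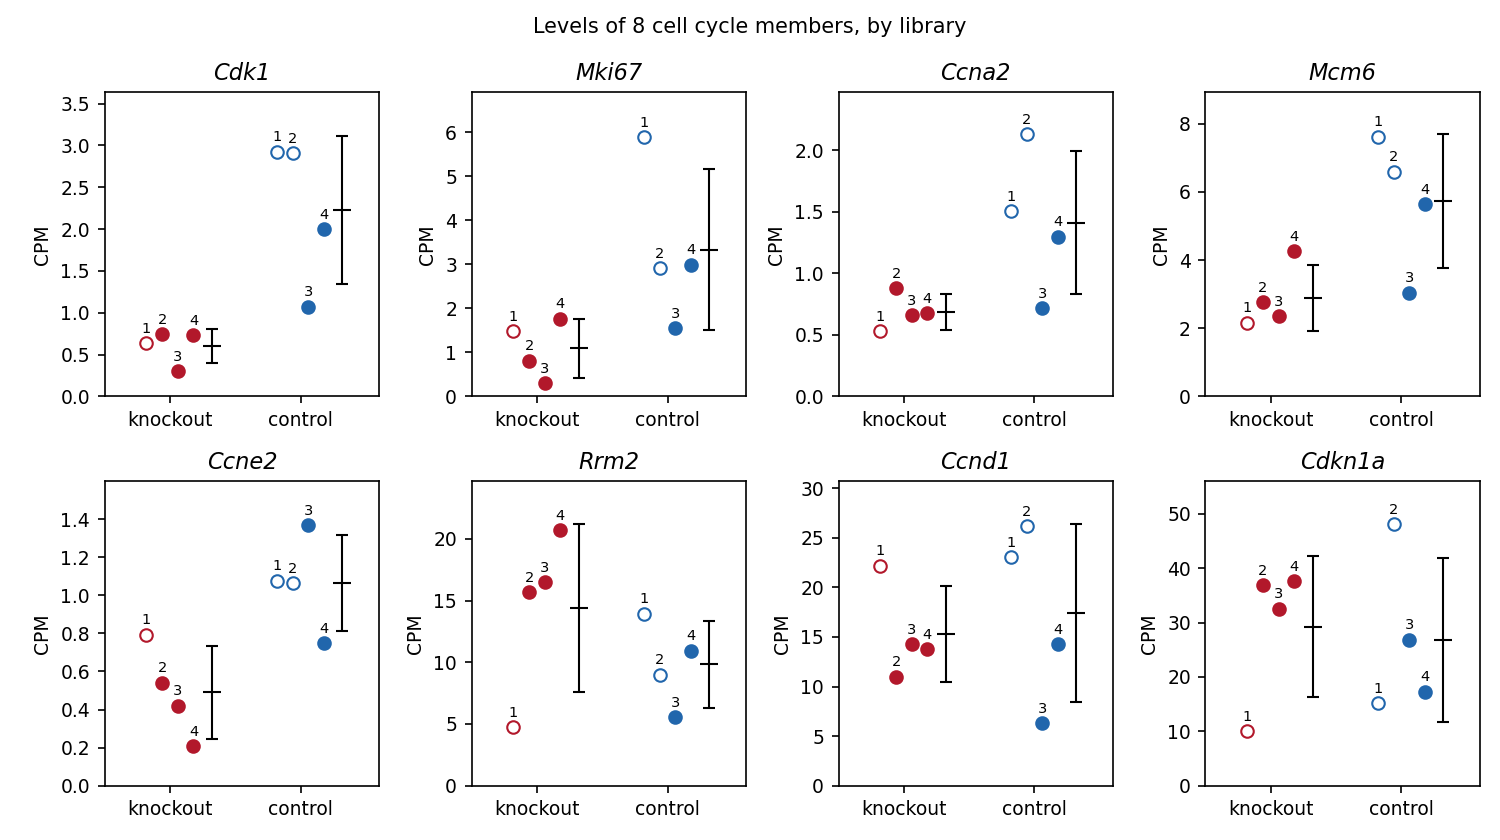
CPM of Cdk1, Mki67, Ccna2, Mcm6, Ccne2, Rrm2, Ccnd1 and Cdkn1a in each library (numbered points), with the mean and SD of each group as a black bar. Filled points are libraries with Y-linked reads, open points those without. Control 3 lies near the knockouts for Mki67, Ccna2 and Mcm6 and is the highest library for Ccne2; Ccnd1 is highest in the 3 libraries without Y-linked reads.

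Promoters of the members were compared by phase, as a description of the lists. Reference promoter letters are the same for both genotypes, so these counts say nothing about the knockout. RefSeq promoters (GRCm38.p6, 250 bases before to 50 after the start) were matched for 28 of the 35 genes, and were searched on both strands for the CHR element of mitotic genes (TTTGAA or TTCGAA), the CCAAT box, E2F sites (TTTCGCGC, TTTCCCGC, TTTGGCGC or TTTGCCGC) and STAT sites (TTCNNNGAA). CHR letters were in 8 of 10 G2/M promoters, 2 of 9 S promoters and 0 of 9 G1 promoters, against 19.4% of 27025 promoters. In Bub1, Aurka and Plk1 the only CHR match lay after the start. E2F letters were in 1 of 10 G2/M, 4 of 9 S and 1 of 9 G1 promoters, against 2.32% of all, and CCAAT letters in 9, 8 and 2 of them, against 37.9%. The STAT letters were in 1 of the 28, that of Mcm5, against 8.47% of all. A match is a description of letters and not a bound site, and matches of different kinds overlapped once, in the Mcm7 promoter. The promoters of the 2 G2/M genes with the smallest p, Cdk1 (chr10:69352863-69353162, minus strand) and Mki67 (chr7:135716330-135716629, minus strand), are shown beside those of the S genes with the lowest and the highest fold change, Mcm6 (chr1:128359656-128359955, minus strand) and Rrm2 (chr12:24708004-24708303, plus strand). Capitals mark CHR, CCAAT and E2F letters on either strand.
Cdk1: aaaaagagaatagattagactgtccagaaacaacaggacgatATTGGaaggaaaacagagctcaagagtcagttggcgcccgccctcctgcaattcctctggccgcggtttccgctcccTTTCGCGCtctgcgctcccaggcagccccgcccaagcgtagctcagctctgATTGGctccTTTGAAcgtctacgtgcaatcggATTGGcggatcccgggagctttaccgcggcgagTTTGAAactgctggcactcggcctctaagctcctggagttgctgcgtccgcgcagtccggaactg
Mki67: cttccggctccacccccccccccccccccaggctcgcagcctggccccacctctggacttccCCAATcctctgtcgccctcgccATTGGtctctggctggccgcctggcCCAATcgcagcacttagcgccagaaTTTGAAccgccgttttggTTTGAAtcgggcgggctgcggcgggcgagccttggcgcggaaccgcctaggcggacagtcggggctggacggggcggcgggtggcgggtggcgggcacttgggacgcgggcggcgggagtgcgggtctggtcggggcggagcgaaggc
Mcm6: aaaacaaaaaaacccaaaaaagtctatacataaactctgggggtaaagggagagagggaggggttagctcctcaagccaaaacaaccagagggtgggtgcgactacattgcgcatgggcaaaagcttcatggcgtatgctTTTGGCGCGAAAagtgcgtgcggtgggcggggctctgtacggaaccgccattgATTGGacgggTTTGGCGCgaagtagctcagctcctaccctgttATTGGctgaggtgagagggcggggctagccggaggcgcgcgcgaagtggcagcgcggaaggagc
Rrm2: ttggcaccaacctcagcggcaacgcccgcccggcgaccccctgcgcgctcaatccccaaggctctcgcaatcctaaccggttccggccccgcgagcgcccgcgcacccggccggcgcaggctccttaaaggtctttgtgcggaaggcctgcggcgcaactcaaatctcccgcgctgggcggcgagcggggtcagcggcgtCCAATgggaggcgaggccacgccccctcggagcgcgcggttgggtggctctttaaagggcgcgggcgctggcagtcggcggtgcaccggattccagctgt
Cdk1 and Mki67 each hold 2 CHR matches and 3 CCAAT boxes, and Cdk1 also 1 E2F match. Mcm6 holds 3 E2F matches, 2 of them overlapping in 1 run of capitals, and no CHR. Rrm2 holds a single CCAAT box.

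Other genes of the cycle, in 4 lists with 104 genes, held no called gene either (0 in edgeR's quasi-likelihood test). Of 36 genes of the spindle, checkpoint and mitotic exit, 19 were tested, with a median log2 fold change of −0.40. Over all genes tested, 8.47% were lower and 5.55% higher at an unadjusted p under 0.05. In this list 2 were lower and 4 higher at that p. The lower 2 included Racgap1, a regulator of cytokinesis, at 0.581, 0, 0.241 and 0.364 CPM in knockouts 1 to 4 and 1.76, 1.42, 0.179 and 1.35 CPM in controls 1 to 4 (−1.93, SE 0.76, adjusted p = 0.306). Control 3 was once more among the knockouts. On the higher side, Ccnf, an F-box cyclin, averaged 16.9 ± 2.06 CPM in knockout and 11.8 ± 2.15 CPM in control (0.52, SE 0.17), and Wee1, the kinase that holds Cdk1 inactive, 4.34 ± 1.38 CPM in knockout and 2.29 ± 0.636 CPM in control (0.92, SE 0.32; SD, n = 4 each). Their adjusted p were 0.253 and 0.267 (edgeR).

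Of 22 retinoblastoma, E2F and G1 regulators, 19 were tested, with a median of −0.11. At p under 0.05, 1 was lower and 1 higher, against 8.47% and 5.55% of all genes tested. E2f8, an atypical E2F that represses its targets and acts in hepatocyte polyploidy in mice, had 0.581, 1.22, 0.481 and 1.04 CPM in knockouts 1 to 4 and 2.02, 4.61, 2.68 and 1.75 CPM in controls 1 to 4. The groups did not overlap, control 3 included, as for 3.86% of all genes tested with the knockouts below. The log2 fold change was −1.72 (SE 0.43, adjusted p = 0.166, edgeR), with an adjusted p of 0.0153 in DESeq2 and of 0.0772 to 0.479 with 1 library left out. Cks1b, a small partner of cyclin-dependent kinases, had 3.17, 5.20, 4.33 and 4.48 CPM in knockouts and 2.37, 2.62, 2.26 and 2.85 CPM in controls, also without overlap, as for 3.22% of all genes with the knockouts above (0.76, SE 0.23, adjusted p = 0.226). Rbl2, the pocket protein p130 of quiescent cells, had a value of −0.41 (SE 0.20, adjusted p = 0.377).

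Of 33 genes of licensing, forks and nucleotide supply, 28 were tested, with a median of 0.08. At p under 0.05, 0 were lower and 3 higher, against 8.47% and 5.55% of all genes tested. The 3 were Gins2, a subunit of the replicative helicase (0.67, SE 0.28), and Rpa2 and Rpa1, subunits of the single-strand binding protein (0.76, SE 0.32, and 0.41, SE 0.18), with adjusted p of 0.332 to 0.345 (edgeR). Of 13 p53 targets and antiproliferative genes, all 13 were tested, 2 were lower and 1 higher at p under 0.05, and the median was −0.29. Trp53inp1, a p53-induced stress protein, had a value of −0.51 (SE 0.20), Mdm2, the ubiquitin ligase of p53, of −0.38 (SE 0.17) and Gas1, a growth-arrest membrane protein, of 0.79 (SE 0.33), with adjusted p of 0.297 to 0.345 (edgeR).

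Marker genes of liver cell types are given beside the G2/M values. The 8 Kupffer cell and macrophage markers summed to 59.3 to 97.4 CPM in knockouts and to 462, 494, 32.5 and 279 CPM in controls 1 to 4, so that control 3 was below every knockout, as the other controls were above. Of the 8, 7 were lower at an unadjusted p under 0.05. Over all genes tested, 8.47% were lower and 5.55% higher at that p. No marker of any list was called after adjustment (edgeR). The 6 T and NK cell markers summed to 2.83 to 6.82 CPM in knockouts and to 12.7, 8.01, 0.298 and 8.89 CPM in controls 1 to 4, with 1 of 3 tested lower at p under 0.05. Control 3, the lowest control of the G2/M sum, was the lowest control in 6 of the 9 marker lists, hepatocytes included among the 9: these 2, B lineage, neutrophils, sinusoidal endothelium and stellate cells. For stellate cells it was close to control 4, at 153 against 157 CPM, and for neutrophils at 1.01 against 1.30 CPM. It was the highest control for erythroid markers, at 40.5 CPM, and for cholangiocyte markers, at 6.91 CPM. The part of any of these cells in the G2/M values was not tested. The 6 B lineage markers went the other way, at 81.2 to 632 CPM in knockouts and 12.5 to 25.5 CPM in controls, 4 of 6 higher at p under 0.05. Sinusoidal endothelial markers summed to 63.4 to 72.2 CPM in knockouts and 26.3 to 82.4 CPM in controls, and cholangiocyte markers to 3.85 to 5.41 CPM in knockouts and 1.84 to 6.91 CPM in controls. Stellate cell markers lay at 191 to 337 CPM in knockouts and 153 to 225 CPM in controls, 3 of 4 higher at p under 0.05. Erythroid markers lay at 31.7 to 49.1 CPM in knockouts and 26.4 to 40.5 CPM in controls, 1 of 2 tested higher at p under 0.05, and neutrophil markers at 0.338 to 4.81 CPM in knockouts and 1.01 to 2.50 CPM in controls. Hepatocyte markers summed to 100000 to 150000 CPM in knockouts and 112000 to 339000 CPM in controls, with control 3 at 114000 CPM. Of these 6, 0 were lower and 1 higher at p under 0.05. None of the 46 markers was at 0 in all libraries. In whole liver, fewer dividing cells and less of a transcript per dividing cell cannot be told apart, nor can the cell type of these reads.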

How the data were processed

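RNA of frozen whole liver was read on the HiSeq X10 platform of Illumina, per the labels. Per the submitters' processing notes, CASAVA 1.8, Bowtie and TopHat2 were used with GRCm38. Counting program, annotation and strand setting: not given in the sources used here. As deposited by the authors, the values are estimated counts per gene (expected counts, 94.2% whole), not normalized. Of the 35 genes, 6 had fractional counts (Ccnd1, Ccnd3, Ccne2, Cdk4, Tyms and Ccna2), so their reads may have been divided among features, which the files do not name.

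Counts were rounded, filtered by filterByExpr (a minimum of 10 counts at the median library size), scaled by TMM and tested by edgeR 4.0.16 (R 4.3.3, quasi-likelihood F-test, no covariate), with Benjamini-Hochberg adjustment over 11692 genes and calls at an adjusted p under 0.05. Every adjusted p comes from this fit unless another is named. SEs derive from the fold change and F. CPM use the TMM-scaled library size, levels per kilobase the exon union of GENCODE M21, which holds 99.8% of the gene identifiers. DESeq2 1.42.0 and limma-voom (limma 3.58.1) were alternatives. Each library was counted once: the most alike pair of a group, knockouts 3 and 4, had a mean chi-square of 10.7 per gene. Libraries in which Uty, Kdm5d, Eif2s3y and Ddx3y summed to over 10 counts were classed as having Y-linked reads. On simulated counts (5 runs, 11692 genes, 4 against 4 libraries) the fit recovered 31.4% of genes given a log2 change of 1 and 89.9% of those given 2, with 32 of 620 calls false. The changed genes were drawn at random from all genes tested, so these shares do not give the recovery for low-count genes such as the G2/M members. Members, phases and gene lists were chosen with earlier results of these data known. All 35 members are named, and 3 genes with the smallest p from each pathway list.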

Additional observations from a re-analysis of the deposited data

Results flagged for a closer look

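Among 102 groups of 4 libraries checked (the 35 genes, the named pathway genes, Stat3 and the phase sums, in each genotype), 4 had a library far from the other 3, where chance gives about 1 in 20. Ccne1 was at 1.77 CPM in control 2, against 0.0596 to 0.250 CPM in the other controls. Tyms was at 10.9 CPM in control 3, against 5.39 to 6.24 CPM in the other controls. Wee1 was at 2.27 CPM in knockout 1, against 4.93 to 5.11 CPM in the other knockouts. Stat3 was at 46.8 CPM in control 3, against 72.1 to 75.1 CPM in the other controls.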

How the results depend on the processing

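The number of cell cycle genes called was 0 in all settings but DESeq2 (1, Cdk1) and the fit without control 3 (Cdk1 and Mcm6), with 0 to 2 when each library was left out. Over all genes, the count of 4 was 11 with upper-quartile scaling, 62 with no filter on low counts, 8 with a filter of 1 CPM in 4 libraries, 278 in DESeq2, 0 in limma-voom, 187 without controls 2 and 3 together, 27 with Y-linked reads as a covariate, 125 in libraries with Y-linked reads alone, 79 at an adjusted p under 0.1, and 0 to 324 when each library was left out. The replicate block gave 0 calls over all genes and 0 among the members; same-numbered libraries deviated together with r of 0.32, −0.25, 0.09 and 0.18, so the numbers were not taken as pairs. The G2/M median of −1.21 was −0.44 in libraries with Y-linked reads alone, and the G1 median of −0.03 was 0.16 without controls 2 and 3 together. The causes of these shifts were not tested. Stat3 kept a fold change of −1.10 to −1.41 in all 19 alternatives and passed in 11 of them. Cdk1, Mki67, Mcm6 and Top2a kept a fold change below 0 in all 19 alternatives, Ccna2 and Ccne2 in the 18 that tested them, while Ccnd1, Ccnd2, Cdk6, Cdkn1a, Cdkn1b, Mcm2, Mcm3, Mcm5, Mcm7, Pcna and Rrm1 changed sign without a call in some. Depth limits the G2/M genes most, since 7 of 13 were under the count filter.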
